A study of Mus musculus with 22 samples.

Results

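Ccng1 and 9 other genes of the p53 pathway (Trp53, Mdm2, Mdm4, Cdkn1a, Bax, Bbc3, Sesn1, Gadd45a and Zmat3) were followed in bulk tissue of the mouse anterior cingulate cortex (ACC). They were taken by gene symbol from a table of 37786 genes, in which each of the 10 symbols named 1 row. Ccng1 was chosen by its measured level, which was lower in optogenetically stimulated mice than in controls, and its difference between those groups is given as a description, with no test. The other 9 genes were chosen as the p53 gene itself, its regulators and known targets. All 10 were among the 17524 genes that passed the minimum of 10 counts in at least 10 mice.

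The RNA came from 12 control mice (ctrl) and 10 stimulated mice (stim), all male, adult and wildtype (C57BL/6J). Both groups had received AAV5-CaMKIIa-ChR2(H134R)-EYFP in the basolateral amygdala (BLA), which places the light-gated channel ChR2 in neurons in which the CaMKIIa promoter is active, and a unilateral optic fiber in the ACC. Blue light was delivered over 9 sessions to stimulated mice and left off in controls, and the ACC of both hemispheres was dissected after the last session. The comparison of the groups asks which transcripts changed after repeated light on the ACC with ChR2 in amygdala axons. No mouse here received light without ChR2, so effects of light itself and of axon activation cannot be told apart. The tissue held the light-exposed amygdala axons, the cortical cells around them and the hemisphere without a fiber, and a lower level of a transcript from fewer cells cannot be told apart from less RNA per cell.

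p53, encoded by Trp53, is a transcription factor that is held at a low level by the ubiquitin ligase Mdm2 and its partner Mdm4. After DNA damage or other stress it is released from them and activates genes of cell cycle arrest, DNA repair and cell death, among them Mdm2, which closes a feedback loop. Ccng1 encodes cyclin G1, an atypical cyclin that brings protein phosphatase 2A to Mdm2, and is itself activated by p53. In neurons, which no longer divide, the pathway is known mainly for its part in the response to injury and in cell death.

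p53 binds a 10-base motif, the p53 decamer, and its response elements hold a pair of decamers. The promoter window from 250 bases before to 50 bases after each transcript start was searched for the decamer. Its consensus reads the same on both strands. The search shows which of these genes carry a decamer near a transcript start, and a gene can have several windows. Windows from RefSeq (GRCm38.p6) were matched for 9 of the 10 genes, all but Zmat3. In the following lines the 10 bases on each side are in lower case and the decamers in capitals. Ccng1 (chr11:40755452-40755491, minus strand, capitals at -195 to -176 from the start) and Cdkn1a (chr17:29090918-29090957, plus strand, -51 to -32) held 2 decamers side by side with 1 mismatch in all.
Ccng1: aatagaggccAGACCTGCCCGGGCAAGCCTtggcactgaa
Cdkn1a: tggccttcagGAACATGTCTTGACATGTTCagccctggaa

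Exact single decamers stood in the windows of Trp53 (chr11:69580274-69580303, plus strand), Mdm2 (chr10:117710925-117710954, minus strand), Bax (chr7:45467080-45467109, minus strand), Sesn1 (chr10:41887256-41887285, plus strand) and Gadd45a (chr6:67037428-67037457, minus strand). Cdkn1a held a further one at -73 to -64, apart from its pair. The Sesn1 window lay inside the gene, which begins at chr10:41809935, and so at an internal transcript start.
Trp53: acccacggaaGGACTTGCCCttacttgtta
Mdm2: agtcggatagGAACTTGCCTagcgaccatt
Bax: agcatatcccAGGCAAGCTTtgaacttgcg
Sesn1: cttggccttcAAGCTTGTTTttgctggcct
Gadd45a: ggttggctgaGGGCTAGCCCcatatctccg

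An exact decamer was found in 7 of the 14 windows of the 9 genes and in 8.36% of all 32851 windows, and a pair with at most 1 mismatch in 29 of all windows (0.0883%). The search for pairs was added after the Ccng1 sequence had been seen. A match of letters describes the window and is not evidence of binding, and the windows of Mdm4 and Bbc3 held no exact decamer.

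Total counts were 24563116 to 36542883 in controls and 23090483 to 43668462 in stimulated mice. The libraries were numbered 1 to 11 (6 controls, then 4 stimulated mice) and 12 to 23 (6 controls, then 6 stimulated mice), with number 7 not analysed here, and each of these runs of numbers is treated separately and as a term of the fits. The first principal component held 45.4% of the variance of all genes tested and separated the runs without overlap. The study made 2 batches of mice, but the labels do not say that the runs are these batches. Mitochondrial genes took 1.04% to 4.81% of the counts in controls and 0.982% to 2.80% in stimulated mice. Summed CPM (counts scaled to library size) of 8 neuronal markers were 9112 to 14616 in controls and 9492 to 15390 in stimulated mice, with none of the markers at 0. All 10 oligodendrocyte markers were lower in stimulated mice at an unadjusted p under 0.05, beside 5.45% of all genes tested, and none at an adjusted p (edgeR). Their summed CPM ranged from 3238 to 19931 (median 5182) in controls and from 2385 to 5851 (median 4130) in stimulated mice. The choroid plexus markers Ttr (log2 fold change -1.88) and Clic6 (-1.17) were lower at an unadjusted p under 0.05 (edgeR). Clic6 had log2 fold changes of -0.0026 in library numbers 1 to 11 and -2.19 in 12 to 23, and Ttr -1.45 and -2.30. The other choroid plexus markers tested, Kl (-0.20) and Aqp1 (-0.05), did not reach that p. The neuronal markers Stmn2 (0.24) and Slc17a7 (0.16) were higher at an unadjusted p under 0.05. None of these genes passed at an adjusted p. Summed choroid plexus markers had a median of 16.4 CPM in controls, with 1 control at 134.7 CPM, and 11.3 CPM in stimulated mice. The part of the choroid plexus and neuronal markers in the results was not tested.

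The order of the 10 genes by level per length differed between the runs. RPKM (reads per kilobase of exon, scaled to library size) is given as the median of the mice of a run. In library numbers 12 to 23 Ccng1 stood first, at 36.9 RPKM (33.5 to 46.8), and exceeded Sesn1 (24.9 RPKM) and Bax (20.1 RPKM) in all 12 mice. In library numbers 1 to 11 Bax (34.1 RPKM, 29.6 to 37.9) exceeded Sesn1 (23.0 RPKM) in all 10 mice, and the place of Ccng1 (17.8 to 39.6 RPKM) differed between the groups. In controls of that run Ccng1 (31.9 RPKM) exceeded Bax (31.5 RPKM) in 3 of 6 mice and Sesn1 (23.1 RPKM) in 5 of 6. In stimulated mice Ccng1 (21.5 RPKM) lay under Bax (36.7 RPKM) in all 4 and exceeded Sesn1 (22.7 RPKM) in 1 of 4. Sesn1 exceeded Bax in 9 of 12 mice of library numbers 12 to 23.

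Mdm2, Cdkn1a, Trp53, Gadd45a and Zmat3 followed in this order of medians in both runs, from 8.90 to 3.46 RPKM in library numbers 1 to 11 and from 11.0 to 3.19 RPKM in 12 to 23. Among them Trp53 exceeded Gadd45a in all 10 mice of the first of these runs and in 6 of 12 mice of the second. The lowest pair stood in opposite orders in the runs, where Bbc3 (2.08 RPKM) exceeded Mdm4 (1.29 RPKM) in all 10 mice of library numbers 1 to 11 and Mdm4 (2.09 RPKM) exceeded Bbc3 (1.33 RPKM) in all 12 mice of 12 to 23.

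Ccng1 (ENSMUSG00000020326, GRCm38, the build of all gene positions given here, chr11:40748552-40755311, minus strand, 6 exon blocks, 3512 exonic bases) was lower in stimulated mice in both runs. Among library numbers 1 to 11, controls had 78.0 to 139 CPM (median 112) and the stimulated mice had 75.9, 75.4, 80.5 and 62.5 CPM. All 4 stimulated mice lay under the control median and 3 of them under the lowest control. Among library numbers 12 to 23, controls had 128 to 165 CPM (median 153) and stimulated mice 118 to 132 CPM (median 127). All 6 stimulated mice lay under the control median, 3 of them under the lowest control, and 4 of the 6 controls lay over the highest stimulated mouse.

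With the run in the fit, the log2 fold change of Ccng1 was -0.38 (SE 0.09), a level 0.768 times that of controls. It was -0.55 (SE 0.15) among library numbers 1 to 11 and -0.27 (SE 0.08) among 12 to 23. Without the term for the run it was -0.29, and leaving out single mice moved it between -0.41 and -0.34. These values were part of what the gene was chosen for and were not tested.

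The mitochondrial share and the oligodendrocyte markers varied alongside Ccng1 in some controls. Among library numbers 1 to 11 the 4 controls with the highest Ccng1 (111 to 139 CPM) had mitochondrial shares of 1.99% to 4.81%, whereas the other 2 controls (78.0 and 82.7 CPM of Ccng1) had 1.63% and 1.68%. The 4 stimulated mice of that run, at 62.5 to 80.5 CPM of Ccng1, had 1.79% to 2.80%. With the mitochondrial share as a further term, the log2 fold change of Ccng1 was -0.30 (SE 0.08). Among library numbers 12 to 23, the 2 controls with by far the most oligodendrocyte marker RNA (19931 and 14660 summed CPM) had 163 and 162 CPM of Ccng1, and a further control had 165 CPM of Ccng1 with 4943 summed CPM of the markers. The log2 fold change was -0.36 without those 2 controls and -0.32 (SE 0.10) with the oligodendrocyte marker level as a term. Without the 2 controls with the highest mitochondrial share it was -0.33.

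**Figure D1:**
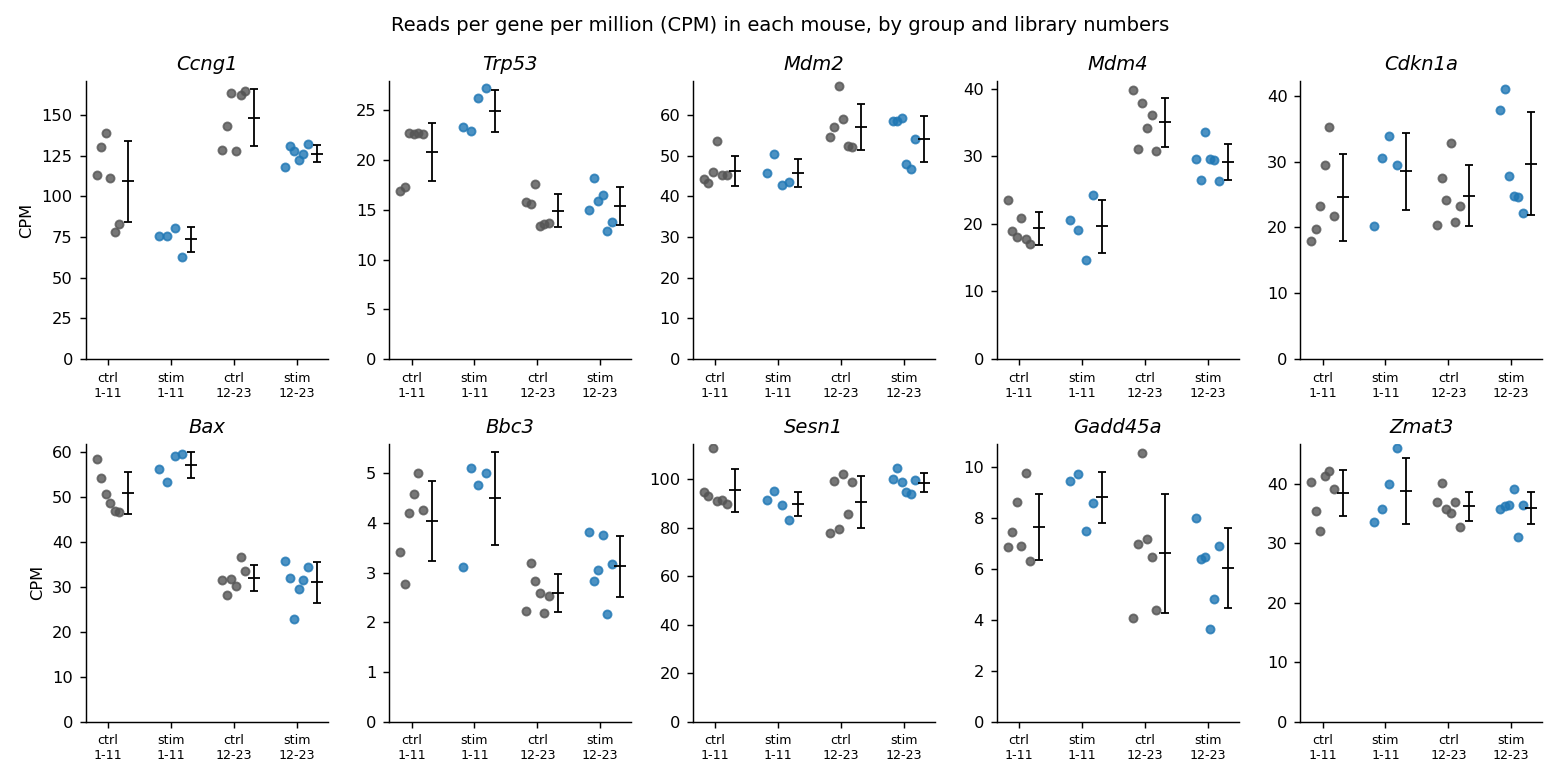
Level of each of the 10 genes in CPM (vertical axis, from 0) in each of the 22 mice (points), for controls (ctrl, gray) and stimulated mice (stim, blue) of library numbers 1 to 11 and 12 to 23, with mean and SD as black bars. Ccng1 lies lower in stimulated mice in both runs (median 75.7 against 112 CPM and 127 against 153 CPM), and the levels of Ccng1, Trp53, Mdm2, Mdm4, Bax, Bbc3 and Gadd45a differ more between runs than between groups.

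None of the other 9 genes differed between stimulated and control mice at an adjusted p under 0.05 (edgeR's quasi-likelihood test with Benjamini-Hochberg adjustment), and none reached an unadjusted p under 0.05. Of all 17524 genes, 0% passed at the adjusted and 11.5% (2015 genes) at the unadjusted threshold. DESeq2 called none of the 9, either adjusted (0.188% of all genes, 33 genes) or unadjusted (12.5% of all genes). Limma voom gave 3 of the 9 an unadjusted p under 0.05 (Trp53, Mdm4 and Cdkn1a, beside 16.3% of all genes) and none an adjusted one (0.00571%, 1 gene). Stimulation went with lower estimates for 3 of the 9 genes and higher ones for 6. Their median log2 fold change was 0.03, beside 0.01 over all genes tested.

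Trp53 (chr11:69580359-69591873, plus strand) had 16.9 to 22.8 CPM (median 22.6) in the controls of library numbers 1 to 11, and 23.4, 22.9, 26.2 and 27.2 CPM in the stimulated mice. Every stimulated mouse of this run thus lay over every control, although the lowest was only just over the highest control. This held for 0.514% of all genes tested (90 of 17524). Among library numbers 12 to 23 the groups overlapped, with 13.4 to 17.6 CPM (median 14.6) in controls and 12.9 to 18.2 CPM (median 15.4) in stimulated mice. The log2 fold change was 0.27 (SE 0.12, unadjusted p = 0.0336, adjusted p = 0.869, edgeR) in library numbers 1 to 11, where 5.56% of all genes passed an unadjusted p under 0.05, and 0.01 (SE 0.11) in 12 to 23. Over both it was 0.14 (SE 0.08, 95% interval -0.02 to 0.30, adjusted p = 0.495). The 2 controls with the highest mitochondrial shares (4.41% and 4.81%) had the lowest Trp53 of their run (16.9 and 17.3 CPM), and the log2 fold change was 0.08 without them and 0.07 with the mitochondrial share as a further term.

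Mdm2 (chr10:117688875-117710758, minus strand), the ligase that marks p53 for degradation, had 43.2 to 53.6 CPM (median 45.2) in controls and 45.8, 50.4, 42.8 and 43.5 CPM in stimulated mice of library numbers 1 to 11. In library numbers 12 to 23 it had 52.1 to 67.1 CPM (median 55.8) in controls and 46.6 to 59.2 CPM (median 56.3) in stimulated mice. The groups overlapped in both runs, and the log2 fold change was -0.05 (95% interval -0.17 to 0.07, adjusted p = 0.764, edgeR). It was -0.03 without the term for the run, and leaving out single mice moved it between -0.07 and -0.02.

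Mdm4 (chr1:132959484-133030561, minus strand), which binds p53 and blocks its activation of genes, overlapped between groups among library numbers 1 to 11, with 17.1 to 23.6 CPM (median 18.5) in controls and 20.6, 19.1, 14.7 and 24.2 CPM in stimulated mice. Controls of library numbers 12 to 23 had 30.8 to 39.9 CPM (median 35.2) and stimulated mice 26.3 to 33.6 CPM (median 29.6), and 5 of the 6 stimulated mice lay under the lowest control. Among these 12 mice the log2 fold change was -0.30 (SE 0.09, unadjusted p = 0.00590, adjusted p = 0.281, edgeR), where 12.4% of all genes passed an unadjusted p under 0.05. For numbers 1 to 11 it was 0.04 (SE 0.14), and over both -0.14 (95% interval -0.31 to 0.03, adjusted p = 0.528). With the oligodendrocyte marker level as a further term it was -0.07.

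Cdkn1a (chr17:29090976-29100727, plus strand) encodes p21, an inhibitor of cyclin-dependent kinases and a classical p53 target. Its level was 17.9 to 35.2 CPM (median 22.5) in controls and 20.2, 30.5, 33.8 and 29.5 CPM in stimulated mice of library numbers 1 to 11. In library numbers 12 to 23 it was 20.4 to 32.8 CPM (median 23.7) in controls and 22.1 to 41.1 CPM (median 26.2) in stimulated mice. Over both runs 8 of the 10 stimulated mice lay over the median of all controls, 2 of them over the highest control, and the groups overlapped. The log2 fold change was 0.24 (SE 0.13, 95% interval -0.02 to 0.50, adjusted p = 0.477, edgeR), the smallest adjusted p among the 9 genes. It was 0.13 with the mitochondrial share and 0.11 with the oligodendrocyte marker level as a further term.

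Gadd45a (chr6:67035096-67037457, minus strand), a stress-induced factor of arrest and DNA repair, varied most among mice of the same group and run (SD 0.37 on the log2 CPM scale). Controls had 6.29 to 9.75 CPM (median 7.15) and stimulated mice 9.43, 9.71, 7.48 and 8.58 CPM among library numbers 1 to 11. In the other run controls had 4.06 to 10.6 CPM (median 6.72) and stimulated mice 3.66 to 7.99 CPM (median 6.42). The estimates had opposite signs in the runs (0.22 and -0.16), and over both the log2 fold change was 0.02 (95% interval -0.28 to 0.33, adjusted p = 0.967, edgeR). Its exons share 337 of 1764 bases with E230016M11Rik on the opposite strand, and the library kit does not mark strand, so reads there cannot be assigned to either gene.

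The death effectors Bax and Bbc3 also overlapped between groups. Bax (chr7:45461697-45466898, minus strand), which permeabilizes the outer mitochondrial membrane, had 46.7 to 58.5 CPM (median 49.7) in controls and 56.4, 53.3, 59.2 and 59.7 CPM in stimulated mice of library numbers 1 to 11, all 4 over the control median. Controls of library numbers 12 to 23 had 28.3 to 36.6 CPM (median 31.7) and stimulated mice 23.0 to 35.9 CPM (median 31.8). The log2 fold change of Bax was 0.18 (SE 0.08, adjusted p = 0.869, edgeR) in library numbers 1 to 11, -0.08 (SE 0.10) in 12 to 23 and 0.05 (95% interval -0.09 to 0.19, adjusted p = 0.799) over both. With the oligodendrocyte marker level as a further term it was 0.14, and without stimulated mouse 7 it was 0.09. The gene model of Bax shares 192 of 1576 exonic bases with Gm45808 on the same strand.

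Bbc3 (chr7:16308393-16318205, plus strand), which encodes the BH3-only protein PUMA, had the fewest counts of the 10 genes, 55 to 219 a mouse. Controls had 2.78 to 5.00 CPM (median 4.23) and stimulated mice 3.12, 5.10, 4.76 and 5.01 CPM among library numbers 1 to 11. In 12 to 23, controls had 2.18 to 3.19 CPM (median 2.56) and stimulated mice 2.16 to 3.81 CPM (median 3.11). In each run all but 1 of the stimulated mice lay over the control median, with a log2 fold change of 0.22 (SE 0.13, 95% interval -0.04 to 0.48, adjusted p = 0.503, edgeR). It was 0.12 with the mitochondrial share as a further term.

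Sesn1 (chr10:41809935-41908424, plus strand) encodes sestrin 1, which restrains mTORC1 signalling under stress, and varied least among mice of the same group and run (SD 0.12 on the log2 CPM scale). Controls had 89.7 to 113 CPM (median 92.1) and stimulated mice 91.5, 95.4, 89.4 and 83.2 CPM among library numbers 1 to 11. In the other run controls had 77.9 to 102 CPM (median 92.4) and stimulated mice 93.8 to 105 CPM (median 99.3), all 6 over the control median. The log2 fold changes in the runs were -0.07 (SE 0.08) and 0.09 (SE 0.08), and over both 0.03 (95% interval -0.09 to 0.15, adjusted p = 0.875, edgeR).

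Zmat3 (chr3:32334792-32366014, minus strand), an RNA-binding zinc finger protein that acts in RNA stability and splicing, had 32.2 to 42.3 CPM (median 39.7) in controls and 33.6, 35.7, 40.0 and 46.0 CPM in stimulated mice of library numbers 1 to 11. Among library numbers 12 to 23 it had 32.8 to 40.1 CPM in controls and 31.0 to 39.2 CPM in stimulated mice, with a median of 36.4 CPM in both groups. Its log2 fold change was -0.00 (95% interval -0.13 to 0.13, adjusted p = 0.996, edgeR). The groups overlapped in both runs.

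Whether stimulation acted differently in the runs was tested with the interaction of group and run for the 9 genes other than Ccng1. None passed at an adjusted or an unadjusted p under 0.05 (edgeR), where 0% and 8.01% of all genes did. The smallest unadjusted p was 0.0787, for Sesn1 (adjusted p = 0.671). The difference for Mdm4, at -0.28 (SE 0.16, adjusted p = 0.685), and that for Trp53, at -0.22 (SE 0.16, adjusted p = 0.760), were likewise not resolved.

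**Figure D2:**
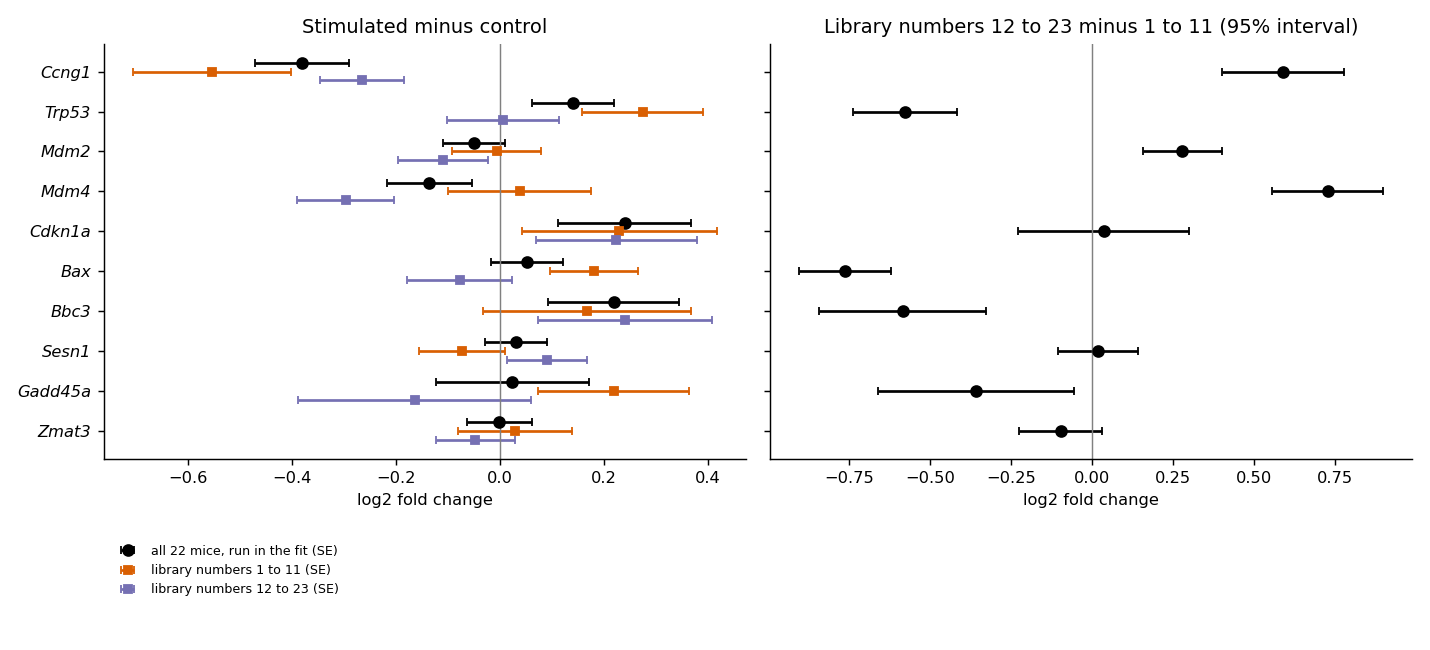
Log2 fold change (horizontal axis) of each of the 10 genes, for stimulated minus control mice with SE bars (left: all 22 mice in black, library numbers 1 to 11 in orange, 12 to 23 in violet) and for library numbers 12 to 23 minus 1 to 11 with 95% intervals (right). Ccng1 is the gene farthest from 0 on the left (-0.38), where it was chosen for its lower level, whereas on the right 7 genes have intervals that exclude 0, from -0.76 for Bax to 0.73 for Mdm4.

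More genes differed between the runs of library numbers than between the groups. At an adjusted p under 0.05 (edgeR), 7 of the 10 genes differed between runs, 3 higher and 4 lower in library numbers 12 to 23. So did 68.1% of all genes tested (33.7% higher and 34.3% lower), so that the share among these 10 is near that of the whole table. Mdm4 was 1.66-fold higher (log2 fold change 0.73, SE 0.08), Ccng1 1.51-fold higher (0.59, SE 0.09, adjusted p = 2.87e-06) and Mdm2 1.21-fold higher (0.28, SE 0.06). Bax was 1.70-fold lower (log2 fold change -0.76, SE 0.07, adjusted p = 3.38e-10), Bbc3 lower by a log2 fold change of -0.59 (SE 0.13), Trp53 1.49-fold lower (-0.58, SE 0.08) and Gadd45a 1.28-fold lower (-0.36, SE 0.15, adjusted p = 0.0332). Cdkn1a, Sesn1 and Zmat3 did not pass, with log2 fold changes of 0.04, 0.02 and -0.10. What separates the runs is not given in the labels.

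Because the level of Ccng1 also varied among mice treated alike, each of the other 9 genes was compared with it across mice after the mean of each group in each run had been subtracted, which removes the difference that Ccng1 was chosen for. No gene passed Benjamini-Hochberg adjustment over the 9 relations (permutation within group and run). Zmat3 had the largest coefficient, with Pearson r -0.53 (permutation p = 0.0245, adjusted p = 0.220) and Spearman rho -0.46 (permutation p = 0.0494, adjusted p = 0.222) over 22 mice. Within the runs r was -0.66 (10 mice) and -0.19 (12 mice), and without the 2 mice farthest from the median of Ccng1 it was -0.52. Sesn1 had r 0.34, made up of 0.66 in library numbers 1 to 11 and -0.06 in 12 to 23. Bax had r 0.29 and rho 0.48 (permutation p = 0.0353, adjusted p = 0.222 for rho). The coefficient was positive for 4 of the 9 genes (Bax, Sesn1, Mdm2 and Gadd45a) and negative for the other 5, with -0.33 for Cdkn1a, -0.35 for Bbc3, -0.24 for Trp53 and -0.08 for Mdm4. Without the 2 mice farthest from the median of Ccng1, r was -0.08 for Trp53, -0.37 for Mdm4 and -0.03 for Mdm2, which had 0.03 over all mice. Without them r was 0.15 for Bax and 0.16 for Gadd45a, against 0.29 and 0.06 over all mice. For Sesn1, Cdkn1a and Bbc3 it was 0.28, -0.24 and -0.23.

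**Figure D3:**
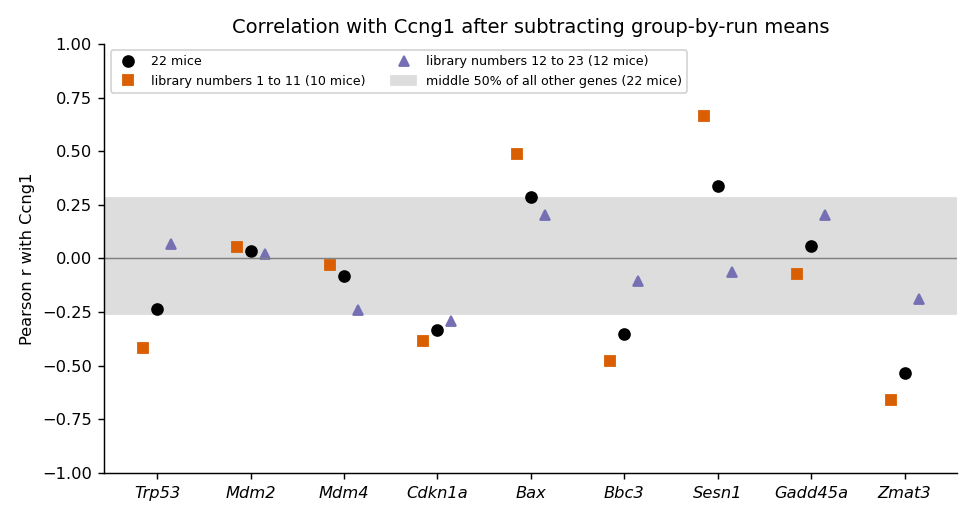
Pearson correlation with Ccng1 across mice (vertical axis) for each of the 9 other genes, after subtracting the mean of each group in each run, for all 22 mice (circles), the 10 mice of library numbers 1 to 11 (squares) and the 12 of 12 to 23 (triangles). The gray band holds the middle 50% of all other genes tested (-0.26 to 0.28), and Zmat3 (-0.53), Bbc3 (-0.35), Cdkn1a (-0.33), Sesn1 (0.34) and Bax (0.29) lie outside it.

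The 5 genes whose level followed that of Ccng1 most closely over the 22 mice, by the same measure, were Ubxn2a (r 0.88), Il7r (0.85), Tmem18 (0.84), Lamp2 (0.83) and Fundc2 (0.82). None of them is among the 10 genes or the p53 lists. Lamp2, which encodes a lysosomal membrane protein, had coefficients of 0.83 and 0.82 in the runs, whereas Il7r had 2 to 37 counts a mouse, with a coefficient of 0.97 in library numbers 1 to 11 and 0.43 in 12 to 23. The coefficients of Ubxn2a (0.96 and 0.68), Tmem18 (0.93 and 0.60) and Fundc2 (0.97 and 0.52) were also lower in 12 to 23. Over all other genes tested the median r was 0.02. These coefficients are a description over mice that share a run, and were picked as the highest of 17523.

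The other genes of the pathway were read from 5 lists, and none of their genes passed at an adjusted p under 0.05 by edgeR. Of 38 further p53 targets tested, 22 were higher and 16 lower after stimulation, and the median of their log2 fold changes was 0.02. At an unadjusted p under 0.05 there were 3 higher and 1 lower, beside 6.05% and 5.45% of all genes. They were Tigar, which redirects glucose away from glycolysis (0.25, SE 0.09, adjusted p = 0.349), the death receptor Tnfrsf10b (0.65, SE 0.24, adjusted p = 0.351, with only 3 to 22 counts a mouse), the adenylate kinase Ak1 (0.15, SE 0.07) and the translesion DNA polymerase Polk (-0.15, SE 0.07). Among 23 regulators of p53, 1 reached an unadjusted p under 0.05, the p53-binding chaperone Daxx (0.14, SE 0.07, adjusted p = 0.414), followed by Ppp1r13b (0.10) and the kinase Dyrk2 (0.17).

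The list of 13 cyclin G partners held chiefly subunits of protein phosphatase 2A. It also held the kinases Gak and Cdk5 and the related cyclins Ccng2 (0.04) and Ccni (-0.09). None of the 13 reached an unadjusted p under 0.05. The smallest were those of Cdk5 (log2 fold change 0.09, SE 0.05, adjusted p = 0.449, edgeR), Ppp2r5a (-0.10) and Ppp2r5b (0.08). Among 6 paralogs of Sesn1, Gadd45a and Cdkn1a, the kinase inhibitor Cdkn1c reached it (0.32, SE 0.13, adjusted p = 0.367, with 0.07 in library numbers 1 to 11 and 0.51 in 12 to 23), whereas Gadd45b (0.20) and Cdkn1b (-0.11) did not. These 0 of 13 and 1 of 6 genes stand beside 11.5% of all genes tested.

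The gene with the smallest p in the 5 lists was Bid, a BH3-only member of the BCL-2 family that links death receptors to mitochondria. Controls had 17.2 to 23.4 CPM (median 18.2) and stimulated mice 21.7, 20.1, 23.7 and 25.1 CPM among library numbers 1 to 11. Controls of library numbers 12 to 23 had 10.6 to 17.9 CPM (median 13.7) and stimulated mice 17.9 to 22.6 CPM (median 19.0). The levels were higher in stimulated mice in both runs, with log2 fold changes of 0.25 and 0.47, and 0.38 (SE 0.09) over both (unadjusted p = 1.79e-04, adjusted p = 0.241, edgeR). DESeq2 called Bid at an adjusted p of 0.0358, as it did 0.188% of all genes (33), so that its call depends on the tool. Of the 12 members of the BCL-2 family tested, the antiapoptotic Bcl2l1 was the other with an unadjusted p under 0.05 (0.12, SE 0.05, adjusted p = 0.363), followed by Bcl2l11 (-0.14), and the median of the family was -0.01. The 2 of 12 stand beside 11.5% of all genes at that threshold.

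**Figure D4:**
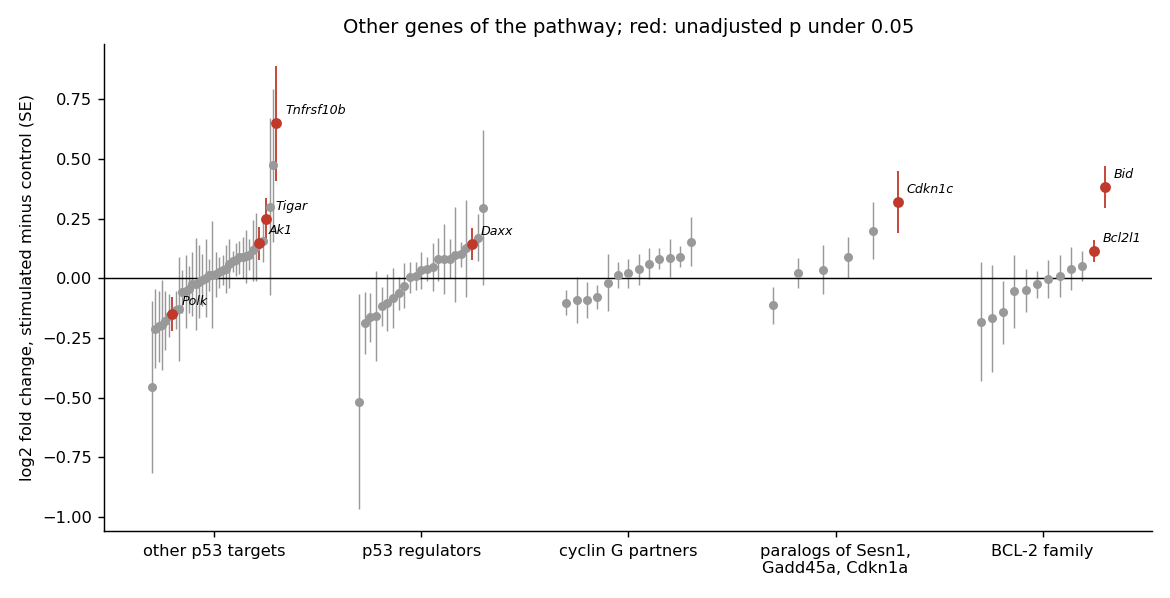
Log2 fold change of stimulated minus control mice with its SE (vertical axis) for each gene of the 5 lists, in order of value within each list; red points are the 8 genes with an unadjusted p under 0.05, and none passed at an adjusted p by edgeR. The points scatter on both sides of 0 in each list, and Bid (0.38) and Cdkn1c (0.32) stand highest in the lists at the right.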

How the data were processed

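RNA sequencing libraries of bulk ACC were made from total RNA with the SMARTSeq v4 kit, which does not mark strand. Per the labels and the study's methods, the authors used cutadapt to trim single-end reads, STAR 2.5.3a to align them to mm10, and HTSeq 0.6.1p1 with the Ensembl annotation to count them per gene. The strand setting of the counting is not given in the sources used here. The authors deposited whole-number counts per gene and mouse, and a signal, the counts divided by their DESeq2 size factors, which was used only to check the size factors (correlation with recomputed ones 0.99999). The deposited table also holds log2 fold changes and p-values of the authors' own comparison, which were not used, and 0 further per-sample columns.

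The counts were tested with edgeR 4.0.16 (TMM, quasi-likelihood test, R 4.3.3) over the 17524 genes that reached 10 counts in 10 or more mice, with group and the run of library numbers as terms and Benjamini-Hochberg adjustment over all of them. The study fitted batch and RNA integrity, neither of which is in the labels. The run is the nearest label, and group alone was an alternative, as were DESeq2 1.42.0, limma 3.58.1 (voom), sva 3.50.0, other filters, each run alone and each mouse left out. CPM and RPKM were computed from the counts with TMM library sizes and exon lengths of GENCODE M21 (GRCm38), to which 37772 gene identifiers matched. Correlations used log2 CPM with a prior count of 2 and 100000 permutations within group and run. Over 231 pairs of libraries the smallest mean chi-square per gene was 10.0, so no library was counted as a copy of another. The fit was tested on simulated data, where it recovered 59.6% of 99 genes changed by 0.5 on the log2 scale and 82.5% of 97 genes changed by 1, with 4.79% false calls, in a table of 17439 genes.

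The 10 genes, the gene lists and the tests were chosen with earlier results of these data known. Named were the 10 genes, the 3 genes of each pathway list with the smallest p and any past the adjusted threshold, the 5 genes most correlated with Ccng1 (Ak1, outside this rule, was named after its values were seen), and, for sequences, Ccng1 and the genes with a decamer in their window. Also outside the rule were the markers Ttr, Clic6, Stmn2 and Slc17a7, named for their unadjusted p, and Kl and Aqp1, named beside them. Gak, Ccng2 and Ccni were named to describe their list. Exons of Gadd45a (19.1%) and Cdkn1a (7.68%) overlap a gene on the opposite strand and those of Bax (12.2%) a gene on the same strand. Of the listed genes, Eda2r, Gdf15, Cdkn2a and Bik did not pass the count minimum.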

Additional observations from a re-analysis of the deposited data

Results flagged for a closer look

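In 3 of 50 groups tested (of 6, 4 and 6 mice), 1 mouse lay far from the others by Dixon's test, which chance gives in about 1 of 20 groups. All 3 were among library numbers 1 to 11. Mdm2, the p53 ligase, was high in control 4 (53.6 CPM, with the next control at 46.0 CPM). Sesn1 (sestrin 1) was high in control 3 (113 CPM, with the next at 94.6 CPM). Bbc3 (PUMA) was low in stimulated mouse 1 (3.12 CPM, with the next at 4.76 CPM). Without these mice the log2 fold changes of stimulated minus control mice over both runs kept their sign and stayed above an adjusted p of 0.05 (edgeR), at 0.28 for Bbc3 without stimulated mouse 1, -0.044 for Mdm2 without control 4 and 0.056 for Sesn1 without control 3. Over all single mice left out, Sesn1 ranged from 0.0033 to 0.056, against 0.030 with all.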

How the results depend on the processing

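Over the alternatives run, no log2 fold change of the 9 genes other than Ccng1 passed an adjusted p of 0.05. The estimate for Ccng1 ranged from -0.55 to -0.27. These fits reuse the mice in which Ccng1 was chosen for its lower level, so its sign in them is no test. The whole table had 33 calls with DESeq2 against 0 with edgeR, and 632 genes at an unadjusted p under 0.05 with group as the only term against 2015 with the run. Changes of sign concerned estimates near 0 or the runs, apart from the correlation of Bax with Ccng1 (Pearson r 0.29 in the main setting). Mdm4 was 0.037 in library numbers 1 to 11, and Bax -0.078 in 12 to 23. Sesn1 was -0.073 in library numbers 1 to 11, -9.9e-04 with the replicate block, -0.021 with the oligodendrocyte marker level and -0.0069 without controls 9 and 11. Gadd45a was -0.16 in library numbers 12 to 23, -0.052 with the replicate block, -0.0105 with the mitochondrial share and -0.0114 without controls 1 and 2. Zmat3 was 6.8e-04 with DESeq2 size factors, 8.8e-04 with DESeq2, 0.0080 with voom, 0.0076 without controls 9 and 11, 0.0030 without a count minimum, 0.0034 with the replicate block and 0.028 in library numbers 1 to 11. Leaving out single mice gave -0.040 to 0.023 for Zmat3 and -0.024 to 0.13 for Gadd45a. Between the runs, requiring 10 counts in every mouse gave -0.032 for Cdkn1a, -0.047 for Sesn1 and -0.16 for Zmat3, which then passed (adjusted p = 0.0194). The correlation with Ccng1 was -0.020 for Mdm2 with DESeq2 size factors, and 0.090 for Mdm4, -0.0115 for Bax and -0.061 for Gadd45a when centred within runs only. The cause was not tested.

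Among estimates that kept their sign over all mice, moves of over 1.5 times included those of Cdkn1a (0.13 with the mitochondrial share, 0.11 with the oligodendrocyte level, 0.14 with the replicate block, against 0.24), Trp53 (0.070 with the mitochondrial share and 0.080 without controls 1 and 2, against 0.14), Bbc3 (0.12 with the mitochondrial share, against 0.22), Mdm4 (-0.069 with the oligodendrocyte level, against -0.14), Bax (0.14 with the oligodendrocyte level and 0.095 without stimulated mouse 7, against 0.052) and Mdm2 (-0.12 with the replicate block, against -0.051).

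Counts at an unadjusted p under 0.05 were small and moved, as did the share of all genes past it. That share was 11.5% in the fit with the run, 3.61% with group alone, 11.3% with DESeq2 size factors, 12.5% with DESeq2, 16.3% with voom, 9.81% without a count minimum, 11.9% with 10 counts in every mouse, 11.3% with the replicate block and 16.6% with the surrogate variable. It was 5.56% and 12.4% in the runs, 10.6% with the mitochondrial share, 7.8% with the oligodendrocyte level, and 8.16% and 8.46% without controls 9 and 11 or 1 and 2. Of the 9 genes, 3 passed with voom (Trp53, Mdm4 and Cdkn1a) and 1 each without a count minimum, with 1 surrogate variable, in either run alone (Trp53 in 1 to 11, Mdm4 in 12 to 23) and without controls 9 and 11 (Trp53), and 5 of the 9 were lower in library numbers 12 to 23 against 3 over both runs. The further p53 targets had 7 with voom and 2 with group alone, with DESeq2 size factors, with 10 counts in every mouse and without controls 1 and 2, against 4. The p53 regulators had 4 with the surrogate variable, 2 with voom and in library numbers 12 to 23, and 0 with group alone, without a count minimum, with the mitochondrial share, with the oligodendrocyte level and without controls 1 and 2, against 1. The cyclin G partners had 3 with DESeq2, voom and the replicate block, 2 with the surrogate variable and 1 with 10 counts in every mouse, against 0. The paralogs had 0 with group alone, in library numbers 1 to 11, with the oligodendrocyte level and without controls 9 and 11, against 1. The BCL-2 family had 1 with group alone, without a count minimum, in library numbers 1 to 11 and with the oligodendrocyte level, against 2. DESeq2 gave the lists 1 call at an adjusted p, Bid. Without single mice the counts ranged from 0 to 2 for the 9 genes, 2 to 6 for the targets, 0 to 3 for the regulators, 0 to 3 for the partners and 1 to 2 for the paralogs.

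The replicate numbers shared by control and stimulated mice mark different animals. Over the 10 pairs the correlation of deviations from the group means averaged 0.308 (lowest -0.367), and 0.0511 within runs (lowest -0.133), so the numbers were not taken as pairs. The replicate block gave Ccng1 -0.44 and no call among the 9 genes. The fits with the mitochondrial share or oligodendrocyte level and those without 2 controls were chosen after seeing the data. Bbc3 has the fewest counts (55 to 219), and the standard error is largest for Gadd45a (0.15).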
